A study of Mus musculus with 24 samples.

Results

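The genes examined encode the proteasome, its assembly chaperones, its activators and its inhibitor. They are all symbols of the form Psma, Psmb, Psmc, Psmd, Psme, Psmf or Psmg followed by a number that are listed in all 4 expression tables of the series, leaving out Psmb8 and Psmb9. This gave 45 of the 14014 genes listed in all 4 tables, and no symbol of this form was listed in only some tables apart from the gene left out by name. The 45 comprised 7 alpha ring subunits, 7 constitutive beta ring subunits, 1 inducible beta subunit (Psmb10), 6 ATPases of the cap, 11 other cap subunits, 3 cap chaperones (Psmd5, Psmd9 and Psmd10), 4 core chaperones (Psmg1 to Psmg4), 4 activators (Psme1 to Psme4) and 1 inhibitor (Psmf1). The remaining gene, Psme3ip1, is not a subunit. Its product binds the activator encoded by Psme3, and its symbol matched only because it begins with that of Psme3.

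Cortical RNA was measured in male mice, 3 to 4 months old, after occlusion of the middle cerebral artery for 1 h and reperfusion for 1 day, a model of ischemic stroke. There were 24 libraries in 4 groups of 6, formed by genotype and by the mark CL or PI, which the labels do not spell out. The groups were PI WT, CL WT, PI KO and CL KO. WT animals were wild type, and KO animals lacked ciRS-7, the circular RNA also called Cdr1as. The strain was given as C57BL/6N-Cdr1asem1Nikr for every animal, WT included, and every animal had the occlusion, so no group without surgery was analysed here. The labels name the same animal for the CL and the PI library of one number within a genotype, so each genotype is represented by 6 animals and each animal by both marks.

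The proteasome is the protease that degrades most ubiquitin-tagged proteins in the cytosol and nucleus. Its barrel-shaped core has outer rings of alpha subunits, which gate the entrance, and inner rings of beta subunits, some of which cut peptide bonds. A cap with a ring of ATPases recognises, unfolds and feeds in tagged proteins, while the activators open the core gate without the cap and without ubiquitin. Psme1 and Psme2 form the activator that is induced by interferon, along with the inducible beta subunits. Loss of proteasome function and build-up of ubiquitin-tagged protein are well known in the ischemic brain.

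Promoter sequences were taken from RefSeq (build GRCm38.p6) for genes on which the results below turn. Each is the 250 bases before the annotated start, written 5′ to 3′ on the gene's strand. Psma3 (chr12:70974373-70974622, plus strand) was the gene that passed the test in both genotypes, Psmb5 (chr14:54617996-54618245, minus strand) encodes a catalytic subunit that had one of the smallest p-values between genotypes in PI cortex, Psmd2 (chr16:20651402-20651651, plus strand) is a cap gene, and Psme2 (chr14:55591102-55591351, minus strand, the farther upstream of 2 annotated starts) had the largest called change. Capitals mark a CCAAT box in Psma3, which begins 139 bases before the start, and the core of an antioxidant response element (TGACNNNGC) in Psmb5, which begins 47 bases before it. None of the motifs searched was found in the Psmd2 and Psme2 sequences.
Psma3: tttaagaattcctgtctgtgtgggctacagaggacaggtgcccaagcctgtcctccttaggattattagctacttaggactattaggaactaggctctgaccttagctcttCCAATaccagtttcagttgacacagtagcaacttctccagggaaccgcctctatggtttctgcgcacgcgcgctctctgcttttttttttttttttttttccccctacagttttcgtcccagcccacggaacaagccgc
Psmb5: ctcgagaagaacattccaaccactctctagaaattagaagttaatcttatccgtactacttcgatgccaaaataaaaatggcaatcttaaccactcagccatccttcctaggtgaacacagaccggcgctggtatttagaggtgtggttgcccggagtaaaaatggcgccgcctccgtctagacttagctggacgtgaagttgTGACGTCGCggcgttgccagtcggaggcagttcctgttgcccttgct
Psmd2: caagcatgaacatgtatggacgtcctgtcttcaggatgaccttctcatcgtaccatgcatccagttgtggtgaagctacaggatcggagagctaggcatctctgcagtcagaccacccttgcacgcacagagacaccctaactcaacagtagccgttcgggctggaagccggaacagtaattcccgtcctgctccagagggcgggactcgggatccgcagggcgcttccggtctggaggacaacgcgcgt
Psme2: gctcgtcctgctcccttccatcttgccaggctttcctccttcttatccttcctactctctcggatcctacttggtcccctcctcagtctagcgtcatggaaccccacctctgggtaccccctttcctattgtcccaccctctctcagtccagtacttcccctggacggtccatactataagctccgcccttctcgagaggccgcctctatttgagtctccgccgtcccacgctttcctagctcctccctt

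Of the 45 genes, 38 had a promoter window of 300 bases, 250 before and 50 after the start, among 27018 mouse genes with one. Both strands were searched. The antioxidant response element core TGACNNNGC, a match for factors of the Nrf family, was found in 6 of the 38 windows (15.8%) and in 14% of all genes' windows. CCAAT was found in 13 (34.2%) against 41.1% of all genes, and the heat shock pattern (GAA, TTC and GAA with 2 bases between each) in 0 against 0.663%. The interferon response pattern (GAAA and GAAA with 2 bases between) was found in 5 (13.2%; Psmb3, Psmd4, Psmd9, Psme1 and Psmg4) against 3.99%. A match describes the letters only.

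The effective depth, read from the steps between low values, was 3.74 to 10.5 megareads per library with a median of 6.91 megareads. One library, CL KO replicate 6, stood apart at 3.74 megareads in the table of PI KO and CL KO, and it could be left out only in limma on the deposited values, since the recovery of the others needs all 6 values of a group. Cdr1as itself was listed in 3 of the 4 tables, at 2558 to 3890 CPM (read counts relative to the library total) in the WT libraries and at most 0.166 CPM in the KO libraries, over the deposited values. Markers of neurons were all listed (8 of 8), which fits the label of cortex, while none of 5 neutrophil and none of 3 T cell markers was listed in the tables that compare PI with CL. In each table the deposited values of a gene and group of 6 had been drawn in at both ends, so that the lowest and the highest library cannot be recovered. "Lowest" and "highest" below therefore mean those of the 4 recoverable values, the median is that of all 6, and a fold change is that of the mean over the 4 recoverable values. Fold changes are on the log2 scale with standard errors (SE), n = 6 libraries a group, and tests were moderated trimmed-mean tests in limma with Benjamini-Hochberg adjustment over all genes of a table. A gene passed at an adjusted p under 0.05. The p-values weigh a difference against the spread between these libraries. These tests treated the CL and PI libraries of an animal as independent, and the animal was fitted only in an alternative on the drawn-in values. The tissue is bulk, so fewer cells of a type and less RNA per cell cannot be told apart.

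The first question was how proteasome transcripts differed between PI and CL cortex. In WT animals 40 of the 45 genes had a positive difference and 5 a negative one, with a median log2 difference of 0.12, while over all 14489 genes 52.3% were positive with a median of 0.01. In KO animals 41 were positive and 4 negative, with a median of 0.20, against 49.9% and -0.00 over 14338 genes. The differences of single genes were small, and 1 gene passed the test in WT (Psma3, higher; 10.6% of all genes passed in either direction, 5.2% as higher and 5.4% as lower). In KO, 14 genes passed, all as higher, where 10% of all genes passed in either direction, 5.11% as higher and 4.94% as lower. The recoverable PI values lay wholly above the CL values for 12 genes in WT and 23 in KO, where 13.2% and 13.4% of all genes did so. They lay wholly below for 0 genes in both, where 13.1% and 13.4% of all genes did so. The 1 gene that passed in WT also passed in KO, 31 genes passed in neither, and 40 of the 45 had the same sign in both genotypes. These are different animals, and the difference between genotypes is tested below for each gene, not for the counts. The number of calls depended on the treatment of the spread: without a trend of the variance with the level, 2 genes passed in WT and 8 in KO, where Psma3, Psma6, Psmb1, Psmb7, Psmd6 and Psmd14 no longer did. With each group centred on its median gene, Psma6, Psmb1 and Psmb7 no longer passed in KO, and the calls over all genes went from 754 higher and 783 lower to 636 and 1053 in WT, and from 732 and 708 to 589 and 1017 in KO. In limma on the drawn-in values, which understate the spread, 22 passed in WT and 32 in KO (25 and 33 with the animal as a replicate block). That test also called a large part of all genes, as given in the closing section on processing. Without CL KO replicate 6 limma on the drawn-in values called 31 in KO (no block), and the median difference in KO was 0.21. The other CL KO values had been drawn in with that library present, so this cannot show the result without its influence.

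**Figure D1:**
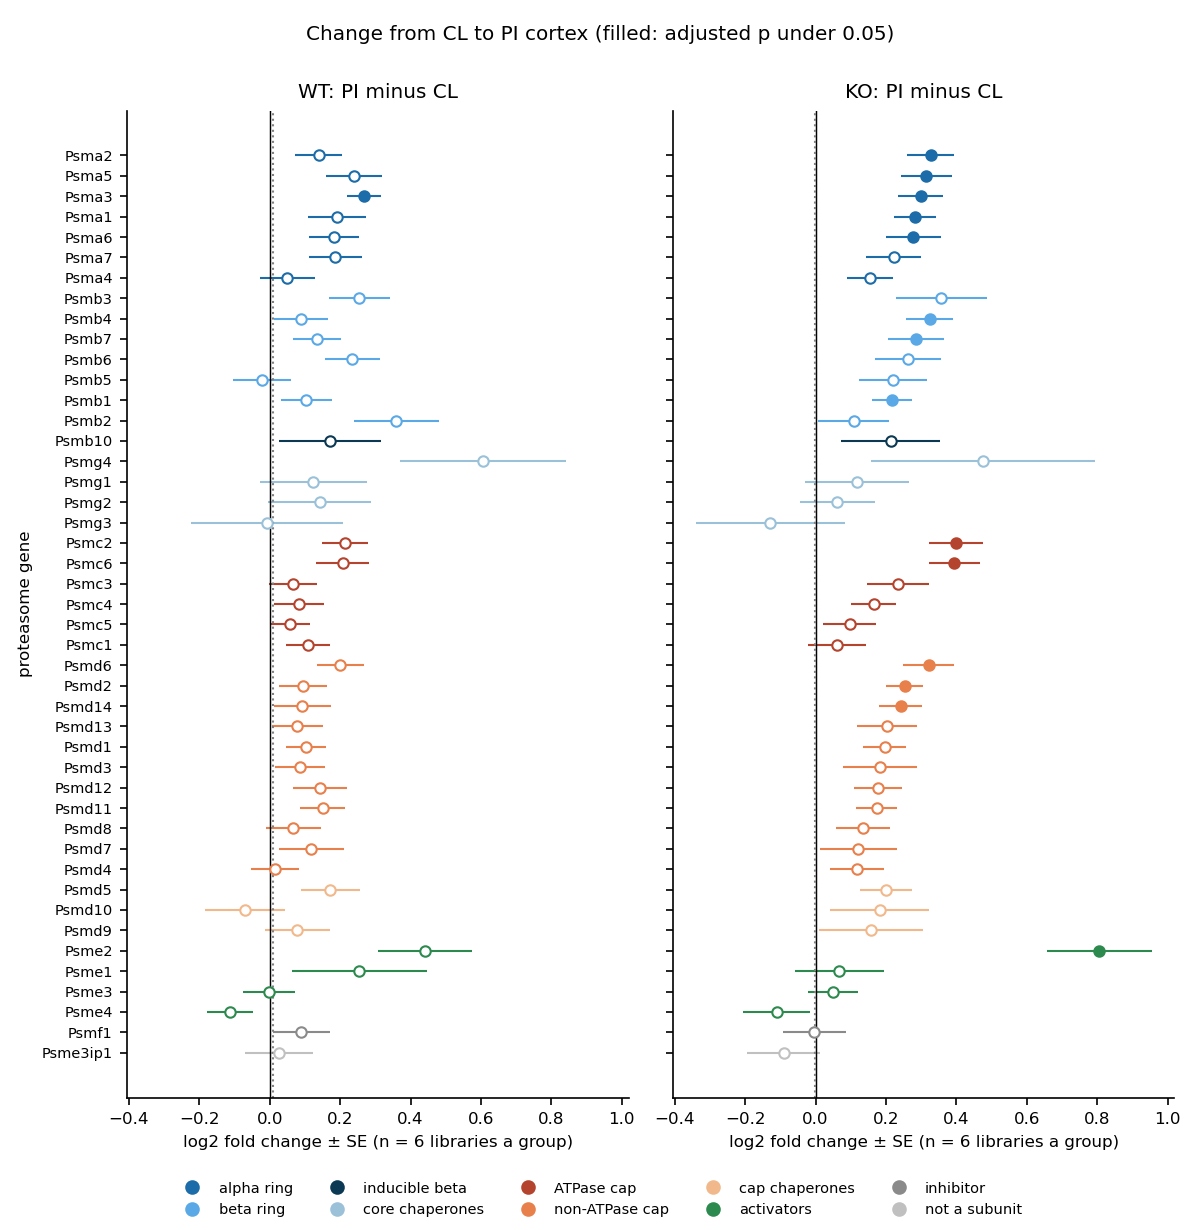
Log2 fold change of PI against CL cortex (x axis, points ± SE) for each of the 45 genes (y axis, grouped and coloured by class) in WT (left) and KO animals (right), with filled points for adjusted p under 0.05 and a dotted line at the median of all genes. Core and cap genes lie to the right of 0 in both panels except Psmb5 in WT (and Psmd4 in WT, at -0.02, when each group is centred on its median gene), with 1 filled point in WT and 14 in KO.

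All 7 alpha genes had positive differences in both genotypes, with a median of 0.19 in WT and 0.28 in KO, and 1 passed in WT and 5 in KO. Psma3 (chr12:70974621-70996347) was at 103, 103 and 105 CPM (lowest, median, highest) in CL WT and at 123, 124 and 127 CPM in PI WT. In KO animals it was at 97.2, 105 and 108 CPM in CL and at 125, 126 and 134 CPM in PI. The sides did not overlap in either genotype, and Psma3 rose by 0.27 ± 0.05 in WT (1.20-fold, limma adjusted p = 0.00406) and by 0.30 ± 0.06 in KO (1.23-fold, limma adjusted p = 0.0113). Its promoter is the first of those printed above.

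Psma2 (chr13:14613240-14674236), another subunit of the same ring, was at 58.8, 59.3 and 59.8 CPM in CL KO and at 70.2, 74.0 and 79.5 CPM in PI KO, a rise of 0.33 ± 0.07 (1.25-fold, limma adjusted p = 0.0088). Psma2 in WT was at 56.6, 59.4 and 63.9 CPM in CL and at 63.3, 66.2 and 67.8 CPM in PI, where the ends overlapped and the difference was 0.14 ± 0.07 (limma adjusted p = 0.229). The genotypes are compared directly further on. Psma5 (chr3:108256926-108279974) was at 39.6, 42.7 and 45.1 CPM in CL KO and at 51.5, 53.1 and 53.6 CPM in PI KO. It rose by 0.32 ± 0.07 in KO (limma adjusted p = 0.016), and in WT, from 38.1, 41.1 and 44.2 CPM to 46.4, 48.5 and 50.7 CPM, its difference was 0.24 ± 0.08 (limma adjusted p = 0.0777). Neither genotype's Psma5 values overlapped between sides.

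Psma1 (chr7:114264606-114276118) and Psma6 (chr12:55384222-55418454) completed the alpha genes that passed in KO. Psma1 was at 52.8, 55.1 and 55.8 CPM in CL KO and at 65.7, 66.6 and 67.6 CPM in PI KO, a rise of 0.28 ± 0.06 (limma adjusted p = 0.0106). Psma6 was at 63.4, 67.7 and 74.2 CPM in CL KO and at 78, 83.3 and 86.1 CPM in PI KO, a rise of 0.28 ± 0.08 (limma adjusted p = 0.0409). Both pairs of groups were apart. In WT their differences were 0.19 ± 0.08 and 0.18 ± 0.07, and neither passed. Psma4 had the smallest difference of the ring, 0.05 ± 0.08 in WT and 0.16 ± 0.07 in KO, and Psma7 had 0.19 ± 0.08 and 0.22 ± 0.08.

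The beta ring was less even. Of its 7 constitutive genes, 6 had positive differences in WT and 7 in KO, with medians of 0.13 and 0.26. None passed in WT, and Psmb1, Psmb4 and Psmb7 passed in KO. Psmb4 (chr3:94884093-94886961), which encodes a subunit without catalytic activity, was at 42.2, 44.5 and 46.3 CPM in CL KO and at 54.1, 55.5 and 57.2 CPM in PI KO. These groups were well apart, and Psmb4 rose by 0.33 ± 0.07 (1.25-fold, limma adjusted p = 0.00914). Psmb4 in WT was at 44.5, 47.0 and 51.0 CPM in CL and at 47.0, 51.0 and 52.6 CPM in PI, which overlapped, with a difference of 0.09 ± 0.08 (limma adjusted p = 0.537).

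Psmb7 (chr2:38588036-38644087) encodes the catalytic subunit with trypsin-like activity. It was at 64.3, 67.5 and 71.9 CPM in CL KO and at 74.3, 84.8 and 87.1 CPM in PI KO, a rise of 0.29 ± 0.08 without overlap (limma adjusted p = 0.0404). In WT its difference was 0.13 ± 0.07 (limma adjusted p = 0.258). Psmb1 (chr17:15475021-15499751), not catalytic, was at 70.2, 73.0 and 73.5 CPM in CL KO and at 82.2, 84.6 and 85.3 CPM in PI KO, a rise of 0.22 ± 0.06 (limma adjusted p = 0.0304). The groups were apart, and in WT the Psmb1 difference was 0.10 ± 0.07.

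The other catalytic subunits did not pass in either genotype. Psmb5, the chymotrypsin-like subunit and the main target of proteasome inhibitors, was at 22.4, 23.4 and 24.5 CPM in CL WT and at 21.7, 22.9 and 24.8 CPM in PI WT, with a difference of -0.02 ± 0.08 (limma adjusted p = 0.909). In KO it was at 21.4, 22.4 and 24.9 CPM in CL and at 24.8, 26.3 and 28.7 CPM in PI, with a difference of 0.22 ± 0.10 (limma adjusted p = 0.173), and the values overlapped at one end. Psmb6, the caspase-like subunit, had differences of 0.23 ± 0.08 in WT and 0.26 ± 0.09 in KO, without overlap in either, and missed the threshold (limma adjusted p = 0.0778 and 0.0971). Psmb2, not catalytic, had the reverse order of genotypes. It was at 12.8, 14.3 and 15.6 CPM in CL WT and at 17, 17.6 and 21.0 CPM in PI WT (0.36 ± 0.12, limma adjusted p = 0.0778), while in KO its difference was 0.11 ± 0.10. This order of genotypes did not pass in the interaction described further on (-0.25, 95% interval -0.58 to 0.08, limma adjusted p = 0.992). Processed pseudogenes of Psmb5, Psmb6 and Psmb7 are annotated, so reads of these genes are uncertain where counting could split them between near-identical copies.

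The inducible subunit Psmb10, which replaces the trypsin-like subunit in cells exposed to interferon, was at 7.87, 8.47 and 10.6 CPM in CL WT and at 8.65, 10.3 and 10.6 CPM in PI WT. In KO it was at 8.31, 8.94 and 9.45 CPM in CL and at 9.03, 10.1 and 12.2 CPM in PI. The sides overlapped in both genotypes, and the differences of 0.17 ± 0.15 and 0.21 ± 0.14 did not pass (limma adjusted p = 0.534 and 0.388). Of the inducible subunits left out by name, Psmb9 was in none of the tables, and Psmb8 was listed only where PI KO was set beside PI WT, at 2.16 and 1.73 CPM on average.

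The cap showed the same direction at smaller size. All 17 ATPase and other cap subunits had positive differences in both genotypes (Psmd4 in WT turned to -0.02 when groups were centred on their median gene), with a median of 0.10 in WT and 0.18 in KO, and 0 passed in WT (4 at an unadjusted p under 0.05, where 23.9% of all genes had one) and 5 in KO. Psmc6 (chr14:45329788-45349705), an ATPase, was at 108, 112 and 119 CPM in CL KO and at 135, 151 and 156 CPM in PI KO. The groups did not overlap, and it rose by 0.39 ± 0.07 (1.31-fold, limma adjusted p = 0.00491). Its WT values were 115, 117 and 132 CPM in CL and at 130, 140 and 148 CPM in PI, a difference of 0.21 ± 0.08 with overlap (limma adjusted p = 0.104). Psmc2 (chr5:21785283-21803787), also an ATPase of the ring, was at 54.8, 59.5 and 61.2 CPM in CL KO and at 71.2, 78.8 and 81.4 CPM in PI KO, a rise of 0.40 ± 0.08 (1.32-fold, limma adjusted p = 0.00626). In WT it was at 61.9, 64.1 and 70.5 CPM in CL and at 73.5, 75.4 and 77.5 CPM in PI, also without overlap, and its difference of 0.21 ± 0.07 fell just short (limma adjusted p = 0.0588). The other 4 ATPase genes had differences of 0.06 to 0.11 in WT and of 0.06 to 0.23 in KO, and none passed. The smallest of the ring in WT was that of Psmc5 (0.06 ± 0.06, and 0.10 ± 0.08 in KO).

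Of the 11 cap subunits without ATPase activity, Psmd2, Psmd6 and Psmd14 passed in KO. Psmd2 (chr16:20651652-20663414), a scaffold that docks ubiquitin-like domains, was at 128, 132 and 135 CPM in CL KO and at 156, 157 and 157 CPM in PI KO. The PI values were nearly equal to each other and lay above all CL values, a rise of 0.25 ± 0.05 (1.19-fold, limma adjusted p = 0.00903). Its WT values were 131, 137 and 140 CPM in CL and at 135, 146 and 157 CPM in PI, with overlap and a difference of 0.10 ± 0.07. Psmd6 (chr14:14112174-14120984), a scaffold subunit of the lid, rose in KO from 52.4, 55.1 and 57.5 CPM to 66.1, 67.4 and 74.2 CPM, by 0.32 ± 0.07 (limma adjusted p = 0.0157). In WT it was at 56.1, 57.7 and 59.6 CPM in CL and at 61.3, 67.6 and 69.3 CPM in PI, without overlap (0.20 ± 0.07, limma adjusted p = 0.0799). Psmd14 (chr2:61711694-61800376), the enzyme that removes ubiquitin chains as the substrate enters, rose in KO from 57.2, 59.0 and 60 CPM to 67.6, 69.3 and 72.0 CPM, by 0.24 ± 0.06 (limma adjusted p = 0.0255). Its WT values overlapped between sides (0.09 ± 0.08). Psmd4, a ubiquitin receptor of the cap, had among the smallest cap differences, 0.01 ± 0.07 in WT and 0.12 ± 0.08 in KO.

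**Figure D2:**
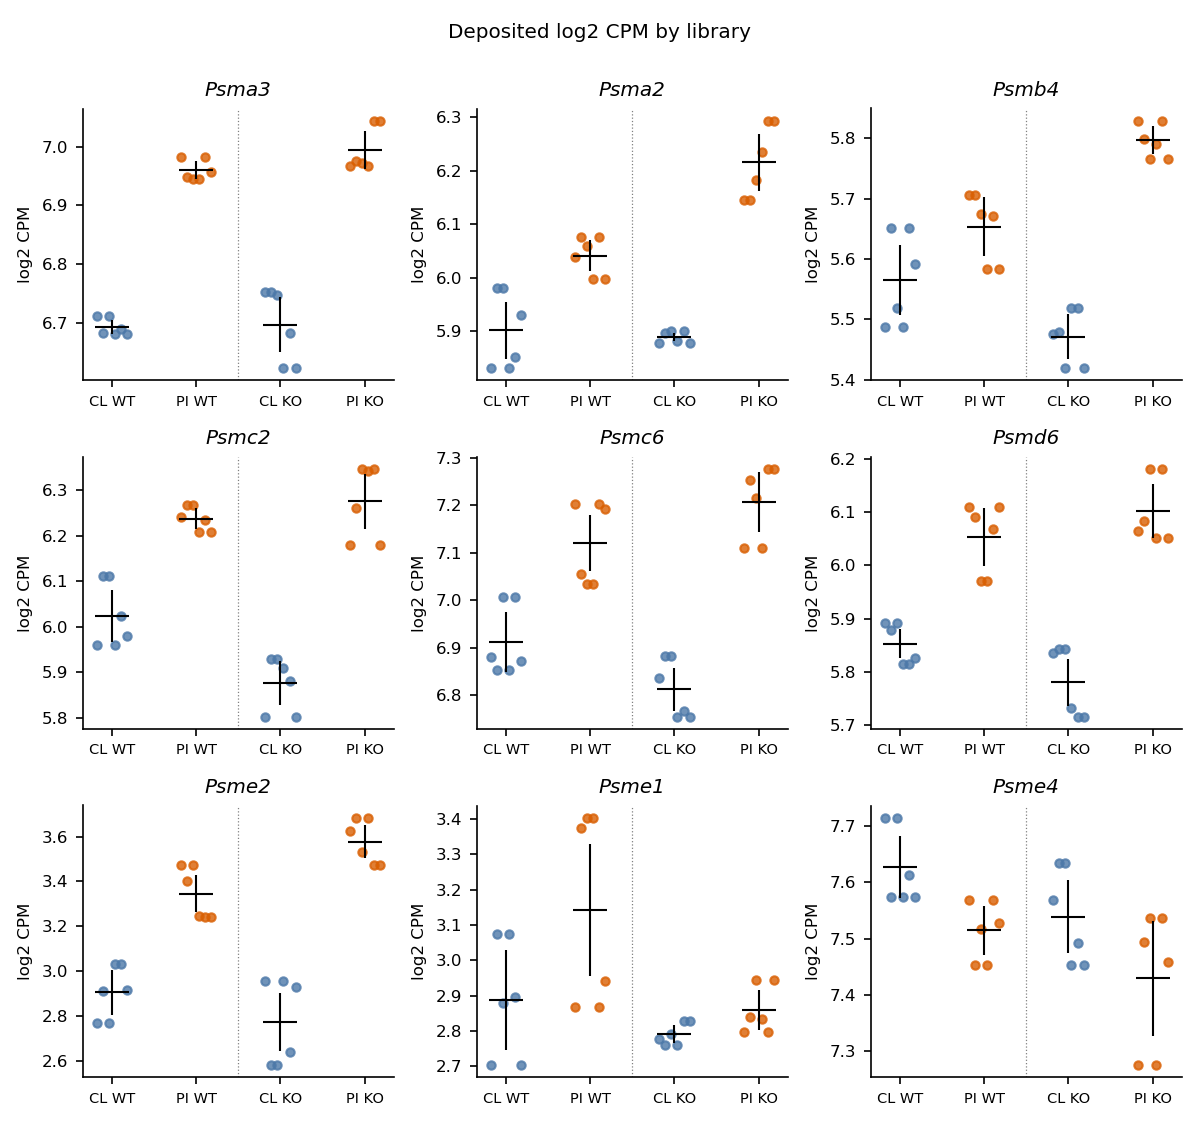
Deposited log2 CPM (y axis) of 9 genes in each of the 24 libraries, with blue points for CL and orange for PI, and black bars for the mean of the 4 recoverable values ± SE. WT and KO were scaled in separate tables (dotted line), and the 2 lowest and 2 highest points of a group are tied as deposited. PI points lie above CL points in both genotypes for Psma3, Psmc2, Psmd6 and Psme2, and below or mixed with them for Psme4.

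The activators differed in sign. Their 4 differences ran from -0.11 to 0.44 in WT and from -0.11 to 0.81 in KO, with medians of 0.13 and 0.06. Psme2 (chr14:55587441-55591113), the beta subunit of the interferon-induced activator, was at 5.90, 6.88 and 7.79 CPM in CL KO and at 11.0, 11.9 and 13.0 CPM in PI KO. This was the largest difference of the 45 genes, a rise of 0.81 ± 0.15 (1.75-fold, limma adjusted p = 0.00485). In WT it was at 6.59, 7.53 and 8.40 CPM in CL and at 9.45, 10.0 and 11.3 CPM in PI, a difference of 0.44 ± 0.13 (1.36-fold) that did not pass (limma adjusted p = 0.0537). The groups were apart in both genotypes. RefSeq also lists a Psme2-like gene, Psme2b, that is not among the genes of these tables, so Psme2 reads may include those of a near-identical copy.

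Psme1 (chr14:55578123-55581529), whose product pairs with that of Psme2 in the same ring, gave no call. It was at 6.25, 7.40 and 8.79 CPM in CL WT and at 7.18, 8.93 and 10.7 CPM in PI WT, which overlapped (0.25 ± 0.19, limma adjusted p = 0.473). In KO it was at 6.75, 6.89 and 7.17 CPM in CL and at 6.90, 7.14 and 7.88 CPM in PI, which also overlapped (0.07 ± 0.13, limma adjusted p = 0.798). Psme3, the nuclear activator, had differences of -0.00 ± 0.07 and 0.05 ± 0.07. Psme4 (chr11:30771726-30880361), the large single-chain activator, was at 190, 193 and 215 CPM in CL WT and at 173, 184 and 192 CPM in PI WT, and at 174, 185 and 202 CPM in CL KO and 148, 178 and 187 CPM in PI KO. Its PI values tended lower but overlapped with CL, and the differences of -0.11 ± 0.07 and -0.11 ± 0.10 did not pass (limma adjusted p = 0.338 and 0.53). On the drawn-in values Psme4 was higher in PI in 0 of 6 WT animals and in 2 of 6 KO animals. The outer libraries there stand at quartiles of their group, so these are not the animals' own differences. With the animal as a replicate block on the drawn-in values the WT difference passed and the KO difference did not (limma adjusted p = 0.00557 and 0.0529). Those values understate the spread, so the WT result is not counted as a call.

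Assembly factors and the inhibitor gave no call in either genotype. The 3 cap chaperones had a median of 0.08 in WT and 0.18 in KO, with Psmd5 at 0.17 ± 0.08 and 0.20 ± 0.07 and Psmd10 at -0.07 ± 0.11 and 0.18 ± 0.14. The 4 core chaperones had medians of 0.13 and 0.09. Psmg4, the most weakly expressed of them, was at 1.51, 1.73 and 2.02 CPM in CL WT and at 2.49, 2.61 and 2.90 CPM in PI WT, without overlap but with a wide error (0.61 ± 0.24, limma adjusted p = 0.133). In KO its difference was 0.48 ± 0.32. Psmg3 had -0.01 ± 0.22 in WT and -0.13 ± 0.21 in KO. At the depth of its group's shallowest library, which may not have held it, the lowest recoverable value of Psmg4 stood for about 4.6 reads. Reckoned in the same way, 15 of the 45 genes had a lowest value worth under 100 reads, so these read numbers are lower bounds. Psmf1, the inhibitor that binds the core, had differences of 0.09 ± 0.08 in WT and -0.00 ± 0.09 in KO, and Psme3ip1 of 0.03 ± 0.10 and -0.09 ± 0.10.

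Per animal, the median difference between the PI and the CL library over the 14 core genes was 0.114, 0.171 and 0.241 (lowest, median and highest of 6 animals) in WT and 0.239, 0.251 and 0.287 in KO. Over the 17 cap genes it was 0.0673, 0.098 and 0.150 in WT and 0.165, 0.195 and 0.251 in KO. Over the 4 activators it was 0.0333, 0.098 and 0.286 in WT and 0.043, 0.058 and 0.094 in KO. Each was positive in 6 of 6 animals of both genotypes. These values use the deposited, drawn-in numbers and so vary less than the animals did.

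**Figure D3:**
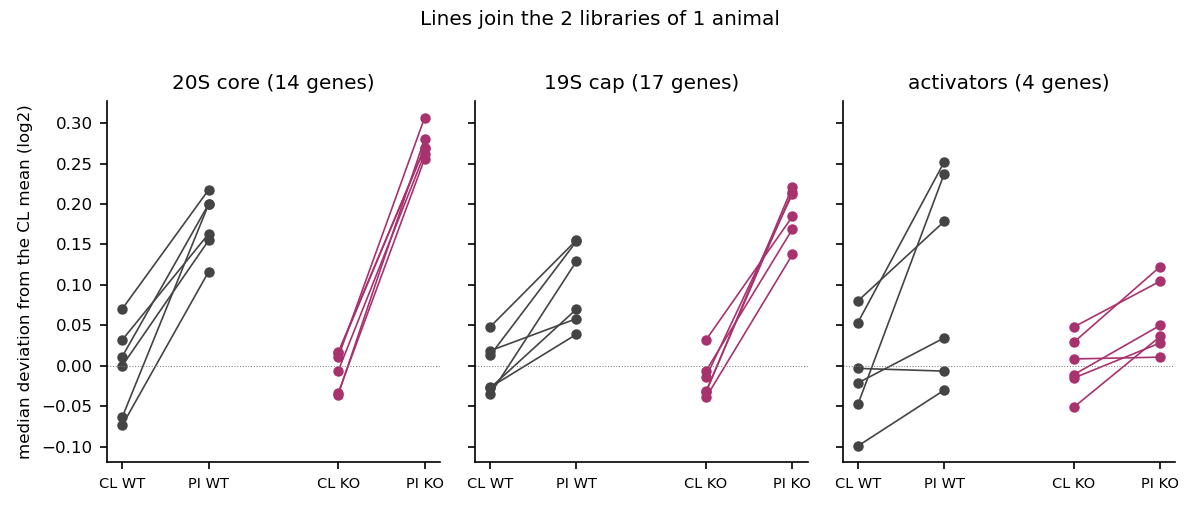
Median deviation from the CL mean of the same genotype (y axis, log2) over the 14 core, 17 cap and 4 activator genes in each library, with a line joining the CL and PI library of 1 animal (grey for WT, purple for KO; deposited values). All core and cap lines rise, and all activator lines but that of 1 WT animal, which is nearly flat; a line joins library medians, so its slope is not the median of the differences per gene.

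The study set KO beside WT animals after stroke. In PI cortex 0 of the 45 genes differed between KO and WT in limma, where 0.0208% of all genes passed, and 2 had an unadjusted p under 0.05 (5.75% of all genes). The KO values were higher for 37 genes and lower for 8, with a median of 0.07 against -0.00 over all genes, and the recoverable values of the genotypes did not overlap for 8 genes, all higher in KO, where 4.39% of all genes were higher and 4.57% lower without overlap. The core had a median of 0.08 (12 positive, 2 negative) and the cap of 0.08 (17 of 17 positive). Psma2 had the smallest p, at 64.7, 67.5 and 69.0 CPM in PI WT and 71.7, 75.9 and 81.5 CPM in PI KO, which did not overlap (0.18 ± 0.07, 95% interval 0.03 to 0.33, limma adjusted p = 0.854). Psmb5 was at 22.1, 23.2 and 25.3 CPM in PI WT and at 25.4, 26.9 and 29.3 CPM in PI KO (0.21 ± 0.09, 95% interval 0.01 to 0.41, limma adjusted p = 0.854). Psmb4 was at 48.0, 52.0 and 53.7 CPM in PI WT and at 55.4, 56.9 and 58.5 CPM in PI KO (0.15 ± 0.07, limma adjusted p = 0.854). None of these differences passed once adjusted over all genes. In limma on the drawn-in values 12 of the 45 passed (calls over all genes are given in the closing section on processing). That test called 1980 to 2150 of 14489 genes when data without any change were simulated at the levels of PI WT and CL WT.

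In CL cortex 0 of the 45 genes differed between genotypes in limma, where 0.0279% of all genes passed, and 1 had an unadjusted p under 0.05 (5.73% of all genes). KO values were higher for 18 genes and lower for 27, with a median of -0.01 against -0.00 over all genes. The recoverable values did not overlap for 1 gene higher in KO (Psmg2) and 1 lower (Psmc2), where 4.35% and 4.32% of all genes did so. The core median was -0.01 and the cap median -0.02. Psmd14 was at 58.6, 65.5 and 66.0 CPM in CL WT and at 56.2, 57.9 and 59.0 CPM in CL KO, which overlapped at one end (-0.14 ± 0.07, 95% interval -0.29 to -0.00, limma adjusted p = 0.866). Psmc2 was at 60.5, 62.7 and 68.7 CPM in CL WT and at 53.9, 58.5 and 60 CPM in CL KO, which did not overlap (-0.14 ± 0.07, limma adjusted p = 0.878). Psma4 had -0.09 ± 0.06 (limma adjusted p = 0.902). In limma on the drawn-in values 4 of the 45 passed, and 3 without CL KO replicate 6, where the median was again -0.01. Calls over all genes by the former are given in the closing section on processing.

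**Figure D4:**
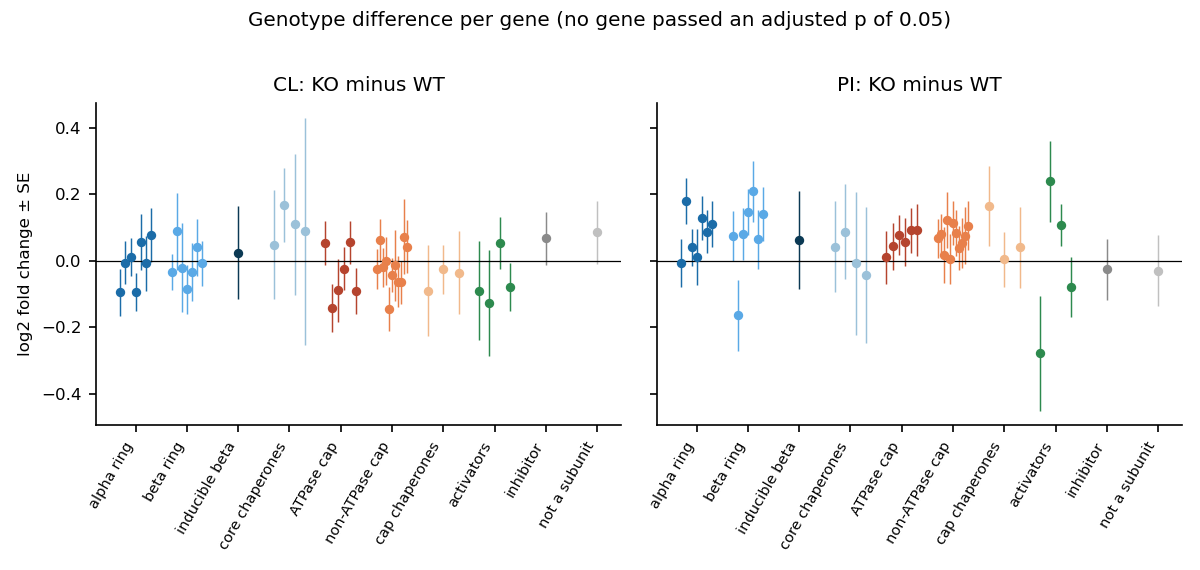
Log2 fold change of KO against WT (y axis, points ± SE) for the 45 genes by class (x axis) in CL (left) and PI cortex (right). In PI cortex 37 points lie above 0 and in CL cortex 18 do, and 0 genes passed in either.

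The interaction, the PI minus CL difference in KO less that in WT, tested each gene for a change that differed between genotypes. In limma, 0 of the 45 genes passed (0% of all 14211 genes passed), and 1 had an unadjusted p under 0.05 (4.55% of all genes). The sign was positive for 36 genes and negative for 9, with a median of 0.08 against -0.00 over all genes, and the medians were 0.10 for the core (13 positive, 1 negative), 0.10 for the cap (16 positive, 1 negative) and -0.10 for the core chaperones (4 of 4 negative). Psmb4 had the smallest p (0.24 ± 0.10, 95% interval 0.03 to 0.44, limma adjusted p = 0.992). Psma2 followed with 0.19 ± 0.09 (95% interval -0.00 to 0.38) and Psmb5 with 0.24 ± 0.12 (95% interval -0.02 to 0.50). The interval for Psme2, 0.36 with bounds of -0.06 and 0.79, spanned 0, and that for Psma3, 0.03 with bounds of -0.13 and 0.19, was centred near it. In limma on the drawn-in values 8 of the 45 passed, and 6 without CL KO replicate 6, where the median was again 0.08. The closing section on processing gives the calls over all genes by the former. By the main test no gene was therefore shown to change differently between genotypes. Whether the 14 calls in KO and 1 in WT differ as counts, or whether the medians over the genes differ between genotypes, was not tested. The interaction uses the same libraries as the comparisons above, so its signs are no separate support for them, and the median 95% interval of a gene reached 0.23 to either side of its estimate.

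**Figure D5:**
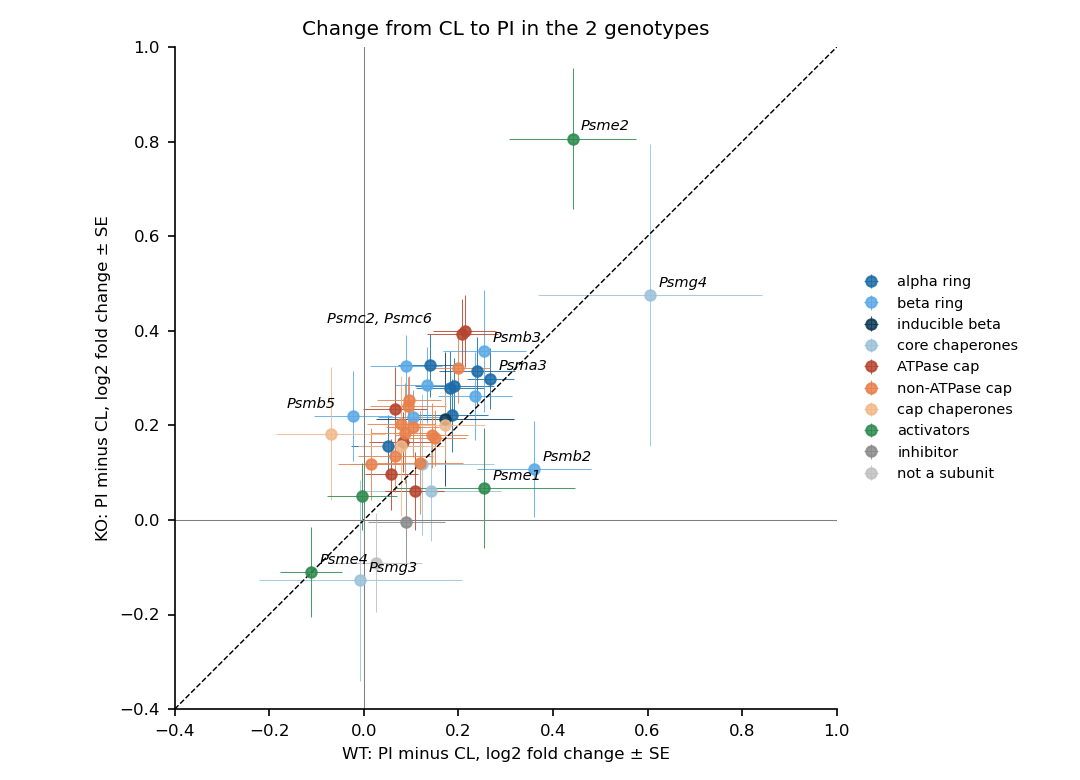
Log2 fold change of PI against CL cortex in WT (x axis) and in KO animals (y axis) for the 45 genes, coloured by class, with SE bars and a dashed line of equality. Most core and cap genes lie above the line, Psmb2 and Psme1 lie below it, and Psme2 is the highest point at 0.44 and 0.81.

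Genes that work with the proteasome were taken from a list of 33 listed genes for ubiquitin, its activating enzymes, shuttling factors, proteasome-bound enzymes and the transcription factors that act on proteasome genes. In WT, 26 of the 33 had positive and 7 negative differences between PI and CL, with a median of 0.08, and 4 passed as higher and 0 as lower, where 5.2% and 5.4% of all genes did so. In KO the counts were also 26 and 7, with a median of 0.12, and 6 passed as higher and 0 as lower, where 5.11% and 4.94% of all genes did so. Vcp, the segregase that extracts tagged proteins, rose by 0.23 ± 0.05 in WT and by 0.20 ± 0.05 in KO (limma adjusted p = 0.0121 and 0.0321). Zfand2a and Uchl1 were called in WT and not in KO (limma adjusted p = 0.0205 and 0.0378), and Nfe2l2, Ubqln1 (0.24 ± 0.07) and Rps27a (0.24 ± 0.05) were called in KO and not in WT; these differences between genotypes did not pass in the interaction. Nfe2l2 encodes a transcription factor that binds antioxidant response elements, and it rose by 0.62 ± 0.16 in KO (limma adjusted p = 0.0253) and had 0.30 ± 0.16 in WT (limma adjusted p = 0.268). Nfe2l1, the factor best known for the recovery of proteasome genes after inhibition, had 0.03 ± 0.06 and 0.04 ± 0.05. No gene of the list passed between genotypes or in the interaction.

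A second list held genes that interferon induces alongside the inducible subunits, of which 6 were listed. In WT 6 differences were positive and 0 negative, and 3 genes passed as higher, where 5.2% of all genes did so. In KO 5 were positive and 1 negative, and 2 passed as higher, where 5.11% of all genes did so. None passed as lower. In WT, Tap1 rose by 1.07 ± 0.29 and Irf1 by 0.93 ± 0.27 (limma adjusted p = 0.0348 and 0.0476). In KO, Tap1 rose by 1.51 ± 0.32 (limma adjusted p = 0.0106), and Irf1 had 0.72 ± 0.24 (limma adjusted p = 0.0733). Tap1 was not listed where CL KO was set beside CL WT, so it was listed only in comparisons that hold PI libraries. Its rise, and its part in the counts above, may therefore owe to how genes came to be listed and is no separate support. Irf1 is a transcription factor of the interferon response, and Tap1 transports the peptides that proteasomes make. Psme2 also rose in KO, whereas Psme1 and Psmb10 had no call in either genotype.

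Cell type markers also differed between the sides. The sums below use the deposited, drawn-in values of each library, so their ranges are too narrow and understate overlap. By recoverable values, 3 of 3 listed monocyte and macrophage markers were higher without overlap in WT and 1 of 3 in KO. Of 2 listed striatal markers, 1 was so in WT and 0 in KO (all genes, 13.2% and 13.4%). Of 5 oligodendrocyte markers, 1 was lower without overlap in WT (all genes, 13.1%). The summed level of 8 neuronal markers was 7011 to 7585 CPM in CL WT and 5769 to 6426 CPM in PI WT, and 7093 to 7361 CPM in CL KO and 5515 to 6152 CPM in PI KO, so that PI was lower without overlap. The same 4 neuronal markers, Camk2a, Nefl, Snap25 and Syt1, passed as lower in both genotypes. The sum of 6 microglial markers was 151 to 163 CPM in CL WT and 155 to 176 CPM in PI WT, and 160 to 174 CPM in CL KO and 171 to 207 CPM in PI KO, with overlap in both. This sum held genes of opposite sign, since 2 of the 6 passed as higher and 1 as lower in each genotype. Over all genes 5.2% passed as higher and 5.4% as lower in WT, and 5.11% and 4.94% in KO. The sum of 3 listed monocyte and macrophage markers of 5 was 13.3 to 15.2 CPM in CL WT and 19.3 to 25.3 CPM in PI WT, and 13.8 to 16.8 CPM in CL KO and 19.5 to 27.2 CPM in PI KO, higher in PI without overlap. Of 4 markers of the striatum, a neighbouring brain region, Drd2 and Adora2a were not listed, and the sum of Drd1 and Ppp1r1b was 44.4 to 51.7 CPM in CL WT and 59.3 to 79.9 CPM in PI WT, and 41.6 to 52.2 CPM in CL KO and 53.9 to 77.0 CPM in PI KO, higher in PI without overlap. Ppp1r1b passed as higher in WT (0.63, limma adjusted p = 0.0159) and not in KO. The sum of 5 oligodendrocyte markers was 1718 to 1870 CPM in CL WT and 1182 to 1679 CPM in PI WT, lower without overlap, while in KO 1387 to 1941 CPM in CL and 1319 to 1507 CPM in PI overlapped. The sums for astrocytes, oligodendrocyte precursors, endothelium and mural cells overlapped between the sides in both genotypes, and the 1 listed choroid plexus marker of 3 was lower in PI KO than in CL KO without overlap. Of 5 astrocyte markers, 1 passed as higher and 1 as lower in each genotype. Of 2 precursor markers, 1 passed as lower in WT and 0 passed in KO. Between genotypes in PI cortex, 2 of 5 neutrophil markers were listed, and both were higher in KO (median log2 difference 0.96). Of 6 microglial markers there, 5 were higher in KO and 1 lower (median 0.18). In both lists 0 markers passed. The part of these shifts in the proteasome differences, between sides or genotypes, was not tested.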

How the data were processed

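Ribosome-depleted total RNA from 24 cortex libraries was sequenced after library preparation with the CORALL kit, per the labels' protocols. The values deposited by the authors are log2 CPM, the read count of a gene relative to its library's total, in 4 tables of 12 libraries that were each scaled on their own, per the file headers. The genome build was mm10, per the submitters' processing notes, and the aligner, the counting and any use of strand are not given in the sources used here. Samples were grouped by their titles.

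In every gene and group of 6 the 2 lowest deposited values were equal and the 2 highest were equal, at the group's quartiles. The 4 inner values were solved from these, and levels were compared only within a table. Each group's mean over the 4 values, with a Winsorized sum of squares and 6 degrees of freedom (12 for the interaction), was moderated by limma's empirical Bayes fit, with the prior variance following the level (limma 3.58.1, R 4.3.3), two-sided, with Benjamini-Hochberg adjustment over all genes of a table. Limma on the values as deposited was run as an alternative, since it needs an unaltered spread. In simulated data with the levels of PI WT and CL WT (14489 genes, 200 changed) the test recovered 0.4%, 48.3% and 84.7% of genes changed by 0.25, 0.5 and 1 on the log2 scale. Between PI and CL 1537 genes passed in WT and 1440 in KO, so the adjusted threshold was less strict than in the simulation. The simulated shares cover genes of all levels and spreads and do not give the power for the proteasome genes.

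CL and PI libraries of one number within a genotype come from the same animal, as the labels name it. On the drawn-in values their deviations correlated by -0.00542 to 0.18 in WT (mean 0.086) and by -0.0448 to 0.165 in KO (mean 0.0629). Libraries of different numbers had means of -0.0172 in WT and -0.0125 in KO. The correlation of the values before they were drawn in cannot be known. The proteasome genes, the gene lists and the markers were chosen with earlier results of these data known. Genes named with values are all called members, the extremes of each class between PI WT and CL WT, the activators, the inducible beta subunit, and the 3 smallest p-values of each comparison between genotypes and of the interaction; other members were added for their role. Some called genes of the lists are not reported here. Positions are from GENCODE M21 on GRCm38 (44 of 45 genes by symbol, 1 by an older symbol). The alternatives were other pseudocounts and filters, centring, no trend, the deposited values, the replicate block and leaving out libraries. Figures were drawn with matplotlib.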

Additional observations from a re-analysis of the deposited data

How the results depend on the processing

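The medians of the 45 proteasome genes kept their sign under each alternative. They moved by less than the standard deviation of that median between the libraries of a group (0.023 to 0.038 by comparison). The exception was KO between PI and CL, where centring each group on its median gene gave 0.17. That deviation came from the drawn-in values and is understated, and the interaction used that of PI and CL in WT. Leaving out genes under 1 CPM or adding 1 CPM before the logarithm changed no count by over 1.5 times and no call of a named gene. Without a trend in the prior variance, 2 genes passed between PI and CL in WT and 8 in KO. As deposited, the values gave limma calls for 22 of the 45 genes in WT and 32 in KO. They gave 12 between genotypes in PI cortex, 4 in CL cortex and 8 in the interaction. Over all genes, in the same order, the calls were 6459 of 14489, 6666 of 14338, 2388 of 14452, 2311 of 14323 and 1940 of 14211. The counts of the 45 are to be read only beside these. With the replicate block (the animal, or only a shared number between genotypes), which could be fitted only on the deposited values, the counts were 25, 33, 5, 2 and 9. Without CL KO replicate 6, an alternative chosen after the depth had been seen, limma gave 31 calls in KO, 3 in CL cortex and 6 in the interaction. The remaining CL KO values had been drawn in with that library present, so its influence was not removed. Counts over all genes are not given here for the block, for no trend or without that library. Those counts of the 45 therefore cannot be set against the share of all genes. Signs turned for Psmd4 (-0.0183) and Psme3ip1 (-0.00702) in WT when centred, and for Psmf1 in KO (0.00746) without CL KO replicate 6; none of the 3 passed. The deposited values understate the spread, and apart from that the cause of these shifts was not tested.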

Other observations

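Levels per length of transcript were compared between genes within CL WT, as CPM per kilobase of all annotated exons, which is approximate because the transcripts in use are unknown. Alpha ring genes ran from 13.9 (Psma7) to 55.8 (Psma6) with a median of 26.6 CPM per kilobase, and constitutive beta ring genes from 8.45 (Psmb3) to 26.0 (Psmb5) with a median of 16.2. The ATPases of the cap had a median of 29.3 and the other cap subunits of 17. The core chaperones were lower, at 1.13 to 5.22. The inducible subunit Psmb10 was at 5.16, below all constitutive beta genes, and the interferon-induced activator gene Psme1 was at 3.35, while Psme4 was at 23.6.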
